A study of Drosophila melanogaster with 46 samples.

Results

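FB4 (listed as Repbase_FB4) and the R1A1-element are 2 transposable elements (TEs) of Drosophila melanogaster, out of 124 TEs whose small RNAs were counted on each strand in the ovarian somatic cell line OSC. They were picked by name because their small RNAs were lower in a Piwi precipitate than in input, so that difference is the choice itself and is given below as a description without a test. The choice holds for FB4 on both strands, but for the R1A1-element on the sense strand alone. The small RNAs came from a CG9754 immunoprecipitate (CG9754-IP), a Piwi immunoprecipitate (Piwi-IP) and input RNA, with 2 libraries of each. OSC is a culture of follicle cell origin, and all 6 libraries came from it; no genotype is given that separates them. The protocol text shared by the samples of the series describes siRNA transfection, but no siRNA is named for these 6 libraries.

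Piwi is an Argonaute protein of the nucleus that carries piRNAs, small RNAs that pair with nascent TE transcripts. CG9754, also called Silencio or Panoramix, acts with Piwi in the transcriptional silencing that follows, and in the follicle cell lineage most piRNAs come from the flamenco cluster and are antisense to TEs of the gypsy group. FB4 belongs to the foldback elements, DNA elements that consist largely of long inverted terminal repeats. The R1A1-element is a non-LTR retrotransposon that inserts at a fixed site in the large-subunit rRNA gene, next to the insertion site of the R2-element.

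The values are RPM, reads per 1000000 reads of a library, scaled to totals of 12493500 to 26138400 reads per library, and the 124 TEs together took 193388 to 251775 RPM. A count of 3 reads, taken as the limit that a count of 0 allows, came to 0.115 to 0.240 RPM, and the members had 26 to 1079 reads per strand and library. The table holds TEs and no genes, so cell type markers could not be read from it. TEs known as follicle cell targets (gypsy, gtwin, ZAM, Idefix, Quasimodo and springer) took 27.8% to 35.6% of antisense RPM, and a list of TEs active mainly in the germline took 3.53% to 4.17%. The labels do not tie the paired libraries to separate cultures, so errors and p-values measure only the spread between these libraries. In bulk samples, fewer cells of a type and less RNA per cell cannot be told apart. A mock precipitate was not analysed here.

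FB4 small RNAs were about 50% less abundant in the Piwi precipitate than in input, and no less abundant on average in the CG9754 precipitate than in input. On the sense strand FB4 had 39.6 and 34.8 RPM in the CG9754-IP libraries, 18.9 and 16.97 RPM in the Piwi-IP libraries, and 36.2 and 32.9 RPM in the input libraries. Its antisense values were 41.3 and 34.8 RPM in CG9754-IP, 14.2 and 13.8 RPM in Piwi-IP, and 30.2 and 29.3 RPM in input. Both Piwi-IP libraries lay below the other 4 on each strand. Both CG9754-IP libraries lay above both input libraries on the antisense strand, whereas on the sense strand these groups overlapped. FB4 averaged 17.9 ± 1.33 RPM in Piwi-IP and 34.6 ± 2.27 RPM in input on the sense strand (SD, n = 2 each), so Piwi-IP held 51.8% of the input level. The antisense means were 13.99 ± 0.310 RPM in Piwi-IP and 29.7 ± 0.617 RPM in input (SD, n = 2 each), or 47.0% of the input level. Both strands of FB4 were thus lower in Piwi-IP by similar factors. How reads from its inverted repeats were counted is not given in the sources used here, so the 2 strands may share reads.

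R1A1-element small RNAs differed between the strands. On the sense strand the R1A1-element had 28.9 and 23.2 RPM in the CG9754-IP libraries, 3.52 and 2.08 RPM in the Piwi-IP libraries, and 12.4 and 12.5 RPM in the input libraries. The 3 groups did not overlap: CG9754-IP was highest and Piwi-IP lowest. The Piwi-IP values rest on 53 and 26 reads, with exact Poisson 95% intervals of 2.64 to 4.60 and 1.36 to 3.05 RPM, which cover counting error only. Sense R1A1-element small RNAs averaged 2.80 ± 1.02 RPM in Piwi-IP and 12.4 ± 0.0393 RPM in input (SD, n = 2 each), so Piwi-IP held 22.5% of the input level.

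On the antisense strand, the one that could pair with the element's transcripts, the R1A1-element had 27.2 and 30.8 RPM in CG9754-IP, 21.4 and 24.3 RPM in Piwi-IP, and 23.5 and 23.8 RPM in input. The Piwi-IP and input libraries overlapped, and the Piwi-IP mean was 96.6% of the input mean. Counted as low in the Piwi precipitate, the R1A1-element is therefore low on its sense strand, and with both strands summed Piwi-IP held 71.1% of its input level, against 49.6% for FB4.

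Of the related rows in the table, FB and the R2-element shared the low Piwi-IP level, and NOF did not. These rows were chosen after their values were seen, and on each strand they were below the 10 RPM mean used to select TEs for the comparisons of levels, though FB passed it with both strands summed. FB, the other foldback row, had 15.8 and 13.1 RPM in CG9754-IP, 4.85 and 4.40 RPM in Piwi-IP, and 9.91 and 8.35 RPM in input on the sense strand. Its antisense values were 10.9 and 10.3 RPM in CG9754-IP, 3.32 and 4.16 RPM in Piwi-IP, and 12.4 and 12.7 RPM in input. The Piwi-IP libraries of FB were again the lowest on both strands, at 50.6% of the input mean on the sense strand and 29.8% on the antisense strand.

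How reads matching several TEs were assigned is not given in the sources used here, so FB and FB4 may share reads, and a read from an inverted repeat can match both strands of a foldback element. Sense FB was 0.400 and 0.376 of FB4 in reads in CG9754-IP, 0.257 and 0.259 in Piwi-IP, and 0.274 and 0.253 in input, so CG9754-IP stood apart. For antisense reads the ratio was 0.264 and 0.296 in CG9754-IP, 0.234 and 0.302 in Piwi-IP, and 0.411 and 0.432 in input, so there input stood apart. In the CG9754-IP library with 692 sense reads of FB4, the antisense count was also 692. In every other library the sense and antisense counts of FB4 differed. They were 1034 and 1079 in CG9754-IP replicate 1, and in Piwi-IP 284 and 214, then 212 and 172. In input they were 682 and 569, then 505 and 449. NOF, an element found inside some foldback copies, stood apart: its Piwi-IP mean was 82.9% of input on the sense strand and 136% on the antisense strand, at levels under 5 RPM in every library.

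The R2-element, which also inserts into the large-subunit rRNA gene, had 12.2 and 7.30 RPM on the sense strand in CG9754-IP, 0.332 and 0.400 RPM in Piwi-IP, and 3.92 and 3.91 RPM in input. The Piwi-IP values are 5 reads each, and the groups had the same order as for the sense strand of the R1A1-element. Sense R2-element reads were 0.421 and 0.315 of the sense R1A1-element reads in CG9754-IP, 0.0943 and 0.192 in Piwi-IP, and 0.316 and 0.314 in input. Antisense reads of the R2-element numbered 1 in each CG9754-IP library, 0 in both Piwi-IP libraries, and 2 and 3 in the input libraries. It therefore had almost no antisense small RNAs at this depth, unlike the R1A1-element. The row R1-2 had at most 15 reads on a strand in any library and gives no usable comparison.

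**Figure D1:**
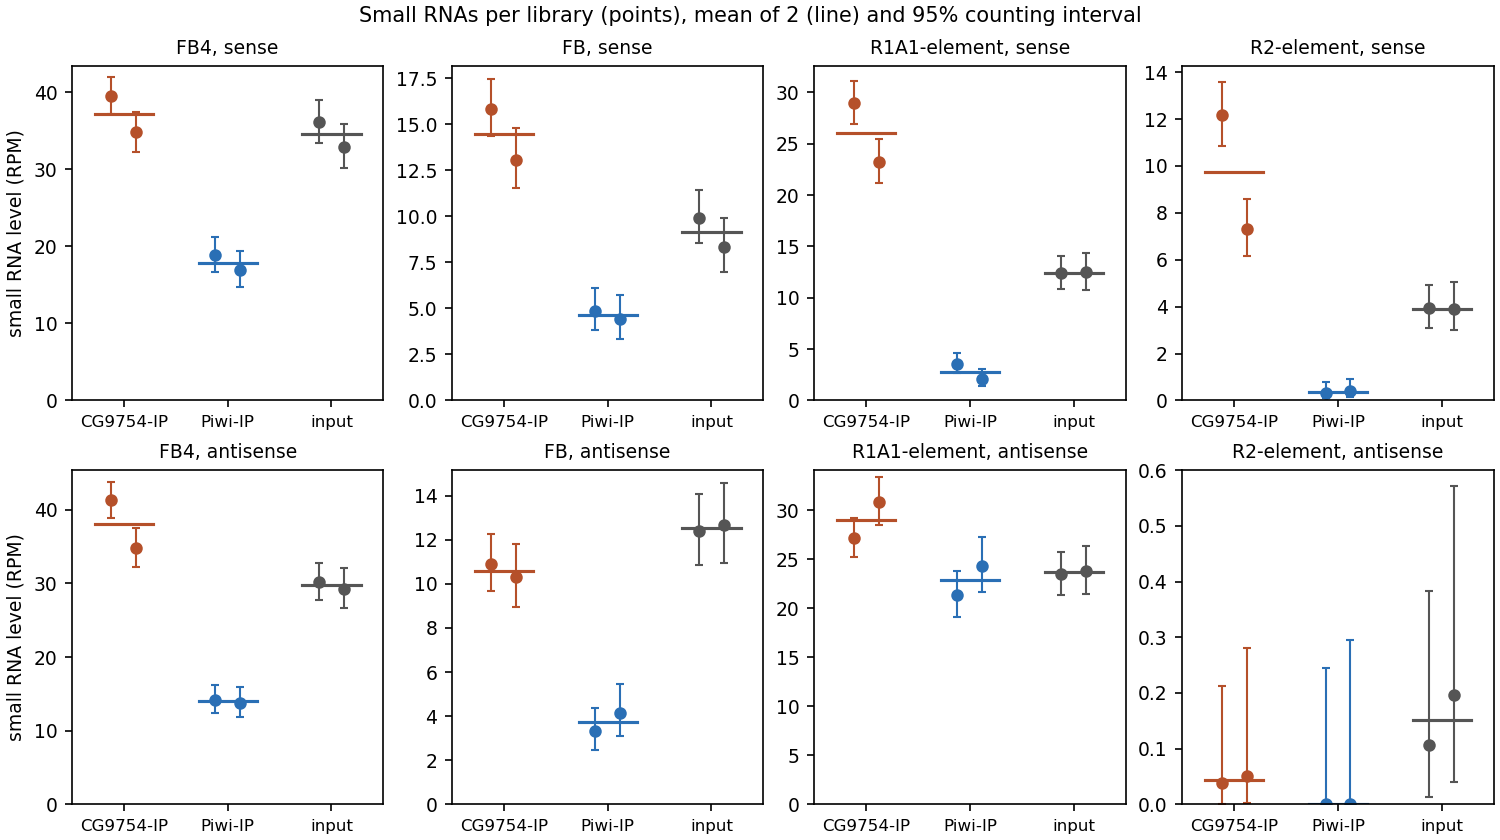
Small RNA level in RPM of FB4, FB, the R1A1-element and the R2-element, sense above and antisense below, with 1 point per library, its exact Poisson 95% interval as a bar, and a horizontal line at each group mean of 2 libraries; each panel has its own scale from 0. The Piwi-IP points are the lowest in every panel except antisense R1A1-element, where they lie on either side of the input points; the antisense R2-element panel rests on 0 to 3 reads.

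A TE was compared on a strand if it averaged 10 RPM or more across the libraries, which left 53 TEs on the sense strand and 75 on the antisense strand, both members included on each. The sense strand of the R1A1-element passed with a mean of 13.8 RPM. It averaged 26.1 RPM in CG9754-IP, 2.80 RPM in Piwi-IP and 12.4 RPM in input. It would not have passed on the Piwi-IP and input libraries together. On the log2(RPM + 1) scale, which understates changes of low values, the Piwi-IP minus input difference of the sense strand was -1.85 for the R1A1-element and -0.91 for FB4, the lowest and next lowest of the 53. The antisense difference of FB4, -1.04, was the lowest of the 75, and that of the R1A1-element, -0.05, was the fifth lowest. The medians over all these TEs were 0.11 on the sense strand and 0.16 on the antisense strand. Piwi-IP was below input without overlap of libraries for 6 sense TEs (11.3%) and 3 antisense TEs (4.0%) in RPM as deposited. Rescaling each library to the same TE total moved the medians to -0.05 and 0.00 and these counts to 22 and 18, while the places of both members among the TEs stayed as given on each strand, also when rescaled by the median ratio.

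Just outside the members lay 297, rover and gypsy4 on the sense strand, all LTR retrotransposons, with differences of -0.47, -0.46 and -0.42. The next lowest of the antisense TEs were the LTR retrotransposon 1731 at -0.16, Chouto at -0.11 and copia at -0.11. The gap between FB4 and the next TE was thus 0.44 on the sense strand and 0.87 on the antisense strand. With a lower limit of 1 RPM in input, chosen after the values were seen, the sense ratio of Piwi-IP to input was lowest for the R2-element, the R1A1-element, FB and FB4, in that order, among 100 TEs. Rover followed at 69.3%, and the median TE was at 107.3%. Of 112 TEs on the antisense strand, FB and FB4 were the lowest, TAHRE followed at 60.9%, and the R1A1-element was 18th.

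**Figure D2:**
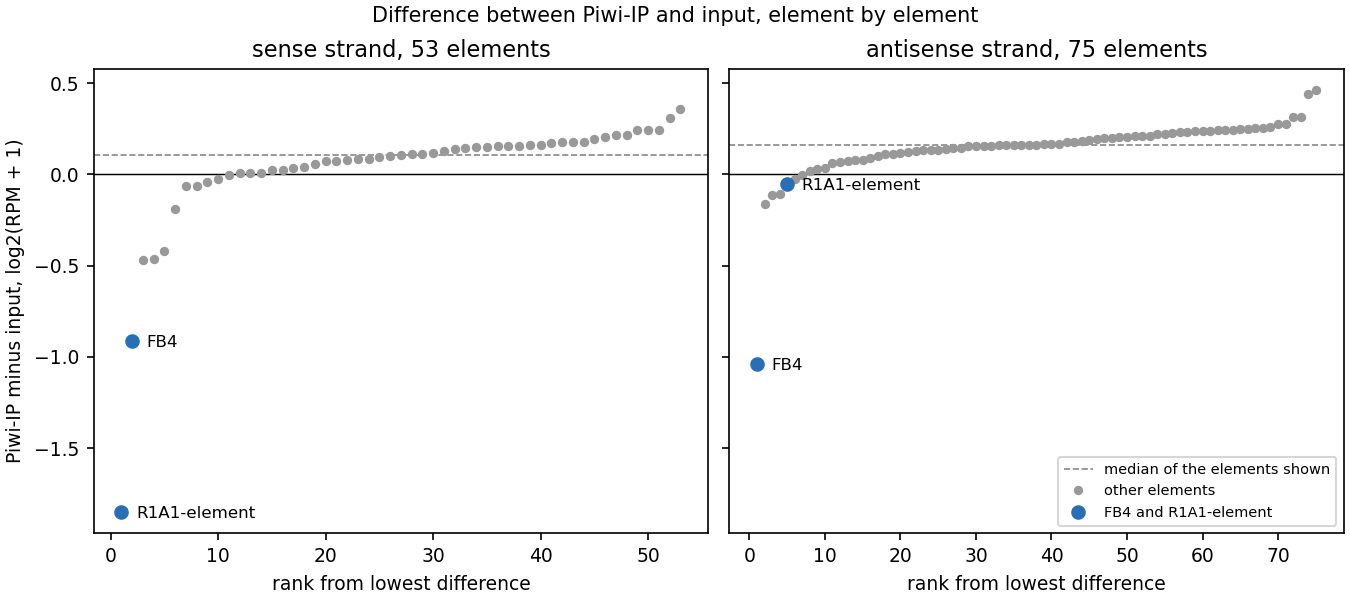
Difference of Piwi-IP minus input on the log2(RPM + 1) scale for each TE past the 10 RPM filter, ranked from lowest to highest, on the sense strand (53 TEs) and the antisense strand (75 TEs). FB4 stands at the low end on both strands, and the R1A1-element on the sense strand, where its difference is -1.85.

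The counted balance of strands was near even for FB4 in every library, and for the R1A1-element it differed between the groups. For FB4 this share has a limit: if reads from the inverted repeats were counted on both strands, the share is drawn towards 50%, and how they were counted is not given in the sources used here. The share of small RNAs on the sense strand was 48.9% and 50.0% for FB4 in CG9754-IP, 57.0% and 55.2% in Piwi-IP, and 54.5% and 52.9% in input. For the R1A1-element it was 51.6% and 42.9% in CG9754-IP, 14.1% and 7.88% in Piwi-IP, and 34.6% and 34.4% in input. The sense share of FB4 thus moved little, while that of the R1A1-element was lowest in both Piwi-IP libraries and highest in both CG9754-IP libraries. Over the 89 TEs with at least 10 RPM on both strands together, the median sense share was 10.8% and 12.2% in CG9754-IP, 6.78% and 7.68% in Piwi-IP, and 7.74% and 8.87% in input. A mean sense share between 30% and 70% was found for 15 of these 89 TEs in CG9754-IP, 12 in Piwi-IP and 13 in input. FB4 was among them in all 3 groups, and the R1A1-element in CG9754-IP and input.

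The input libraries took part in the choice of the members, so a test against input is not independent of that choice. With this limit, the difference in strand balance between CG9754-IP and input was tested with limma on log2((sense + 1)/(antisense + 1)). For the R1A1-element this log2 ratio was -0.15 ± 0.34 in CG9754-IP and -0.88 ± 0.0093 in input (SD, n = 2 each). Its difference of 0.72 (95% interval 0.04 to 1.40) missed the threshold of 0.05, with a Benjamini-Hochberg adjusted p of 0.0558, though it was under the threshold in 6 of 15 alternatives. The 15 alternatives gave limma adjusted p-values of 0.0222 to 0.180. The difference passed without CG9754-IP replicate 2 (0.96, adjusted p = 0.0247) and without either Piwi-IP library (adjusted p = 0.0363 in both cases). For FB4 the log2 ratio was -0.03 ± 0.042 in CG9754-IP and 0.21 ± 0.063 in input, a difference of -0.24 (95% interval -0.55 to 0.07, limma adjusted p = 0.130). Of the 89 TEs 64 (71.9%) passed, 48 with a higher and 16 with a lower ratio in CG9754-IP, and the median difference was 0.49. Without input replicate 2 these counts were 33 and 9. In Piwi-IP the log2 ratio of the R1A1-element was -2.67 ± 0.52 (SD, n = 2), a difference of -1.80 from input and the lowest of the 89 TEs. It was chosen for low sense values in Piwi-IP, so this place is part of the choice and was not tested.

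**Figure D3:**
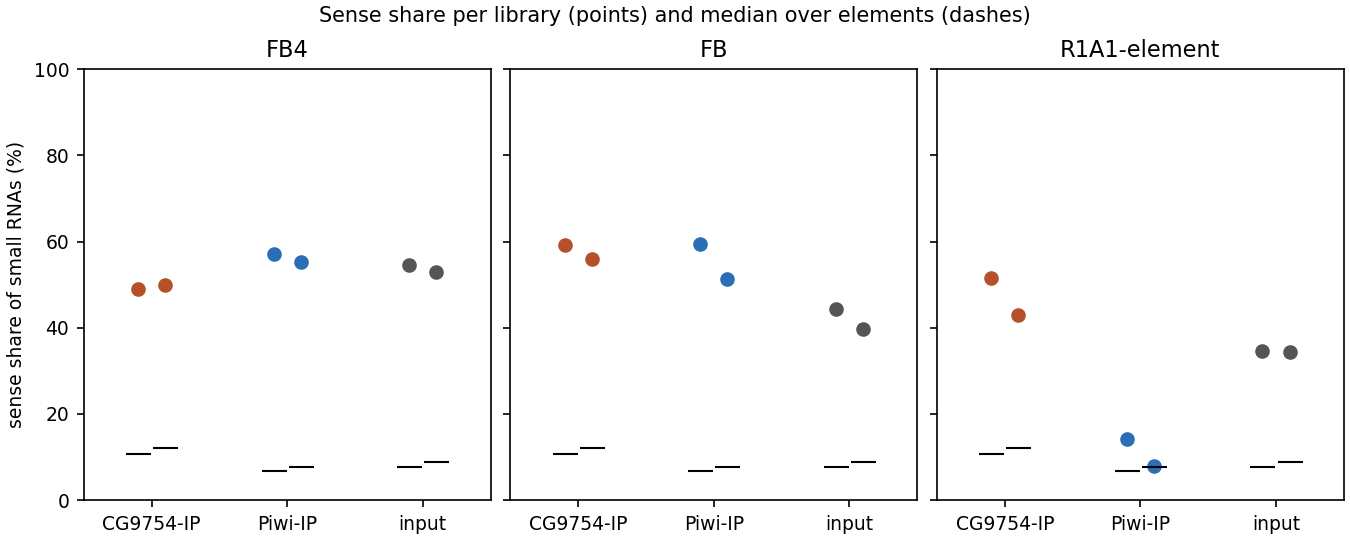
Share of sense small RNAs in percent in each library (points) for FB4, FB and the R1A1-element, with the median over 89 TEs in the same library as a dash. FB4 stays between 48.9% and 57.0%, while the R1A1-element lies at 7.88% and 14.1% in the Piwi-IP libraries and at 34.4% or more in the other 4.

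The CG9754 precipitate was also compared with input. RPM is a share of each library, and no mock precipitate was analysed here. A higher value in CG9754-IP therefore does not show by itself that a small RNA came down with CG9754. Sense R1A1-element small RNAs rose in CG9754-IP, by 1.00 on the log2(RPM + 1) scale (SE 0.25, a 2.00-fold difference with a 95% interval of 1.41 to 2.85). The limma adjusted p over 53 TEs was 0.000938, and it stayed under 0.05 in all 15 alternatives that were run (1.1e-05 to 0.0250). This rise had much company: 24 of 53 sense TEs (45.3%) rose and 10 (18.9%) fell, and the R1A1-element ranked 14th from the highest. The 53 include TEs, such as rover and gypsy4, that passed the filter only through CG9754-IP, which favours a rise. The R1A1-element also needed its CG9754-IP libraries to pass on the sense strand, though its input mean was above 10 RPM. Without a filter 41 of 124 sense TEs rose and 10 fell. Its libraries in CG9754-IP lay above those of input without overlap, as did those of 27 of 53 TEs (50.9%). The input libraries took part in the choice of the members, so the difference from input is not independent of that choice. A choice of high input values would lower such a difference, but the size of this effect was not tested. The same limit holds for FB4 and for the antisense strand.

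For FB4 on the sense strand the CG9754-IP minus input difference was 0.10 (SE 0.16, limma adjusted p = 0.617). Its 95% interval was -0.23 to 0.43, or 0.855-fold to 1.35-fold. This does not show the levels to be equal. The median of the 53 sense TEs was 0.22. FB4 was not past the threshold in any of the 15 alternatives run.

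Neither member passed on the antisense strand, although both CG9754-IP libraries were above both input libraries for each, as they were for 19 of 75 TEs (25.3%). FB4 averaged 38.0 ± 4.57 RPM in CG9754-IP and 29.7 ± 0.617 RPM in input (SD, n = 2 each), a log2 difference of 0.34 (SE 0.12, 95% interval 0.05 to 0.63, limma adjusted p = 0.0557). It passed in 5 of 15 alternatives, with adjusted p-values of 0.00416 to 0.242. The R1A1-element averaged 29.0 ± 2.60 RPM in CG9754-IP and 23.7 ± 0.231 RPM in input (SD, n = 2 each), a log2 difference of 0.28 (SE 0.12, 95% interval -0.01 to 0.58, limma adjusted p = 0.0960). It passed in 2 of 15 alternatives, with adjusted p-values of 0.0179 to 0.284. Of the 75 antisense TEs 34 (45.3%) passed, 9 of which rose and 25 fell, and the median was -0.16, below both members.

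These antisense counts depend on the scaling and on single libraries. With each library rescaled to the same TE total, 19 rose and 15 fell, and the median moved to 0.01 (that of the sense strand moved to 0.40). On that scale FB4 and the R1A1-element were 0.52 and 0.46 higher in CG9754-IP, with limma adjusted p-values of 0.0129 and 0.0338. Without CG9754-IP replicate 1, 16 TEs rose and 41 fell; without input replicate 1, 7 and 12; and without input replicate 2, 4 and 10. Leaving out CG9754-IP replicate 2 brought FB4 under the threshold (adjusted p = 0.00416), and leaving out CG9754-IP replicate 1 did so for the R1A1-element (adjusted p = 0.0179).

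**Figure D4:**
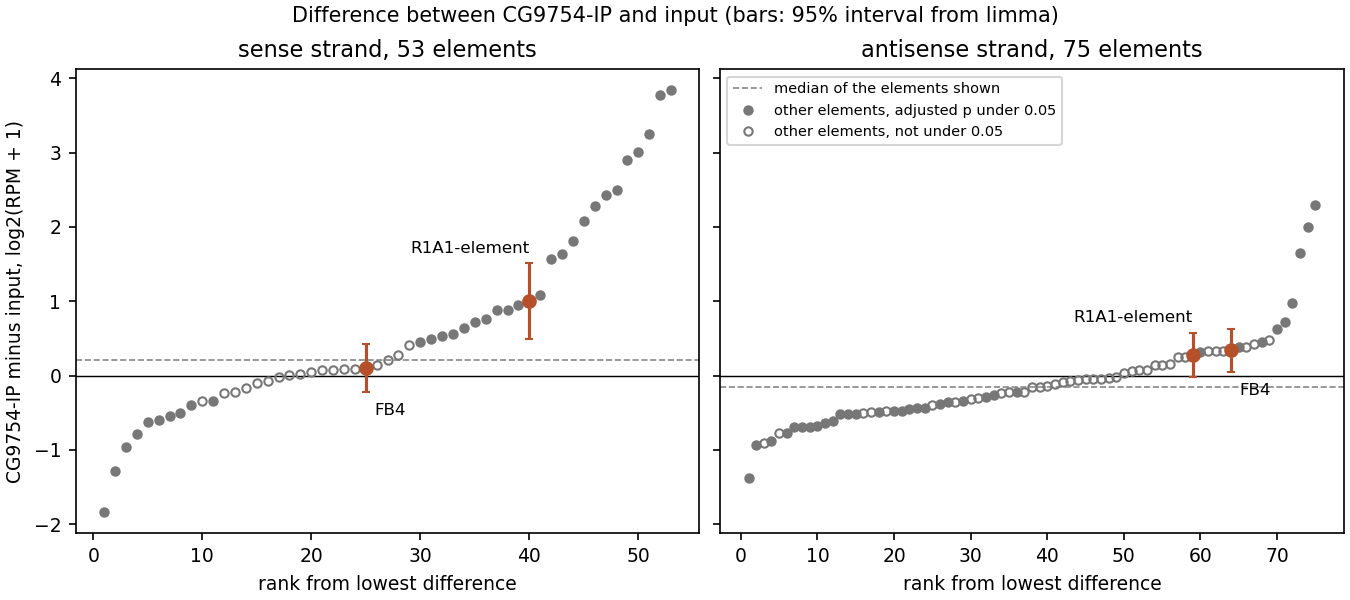
Difference of CG9754-IP minus input on the log2(RPM + 1) scale for each TE past the filter, ranked from lowest to highest on each strand; bars on the members are 95% intervals from limma, and filled points mark other TEs with an adjusted p under 0.05. The sense R1A1-element lies at 1.00 among many TEs that rose, sense FB4 lies near the median, and the antisense values of both members lie at 0.28 and 0.34.

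Set against each other, the precipitates differed for both members. Since the Piwi-IP libraries were chosen as low for them, these differences are given without a test. Small RNAs of the R1A1-element were 9.31-fold as abundant in CG9754-IP as in Piwi-IP on the sense strand and 1.27-fold on the antisense strand. For FB4 the ratio was 2.08-fold on the sense strand and 2.72-fold on the antisense strand. The antisense difference of FB4, 1.38 on the log2 scale, was the fourth highest of 75 TEs, whose median was -0.38.

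Profiles over the 6 libraries were compared by the distance between log2 values centred per TE, among TEs past the 10 RPM filter alone. FB and the R2-element were below it on each strand, so this search could not find them. Over the sense strand 297, rover and gypsy4 were nearest to the R1A1-element, at distances of 1.48, 1.61 and 1.77 (median over 52 TEs 2.89). Rover averaged 46.8 RPM in CG9754-IP, 6.14 RPM in Piwi-IP and 8.86 RPM in input, and gypsy4 averaged 39.4, 4.35 and 6.17 RPM in the same groups. In each of these TEs the order of groups was that of the R1A1-element. The log2 differences from input of 297, rover and gypsy4 were 2.08, 2.28 and 2.496 in CG9754-IP, above the 1.00 of the R1A1-element. In Piwi-IP they were -0.47, -0.46 and -0.42, against -1.85 for the R1A1-element. Rover and gypsy4 passed the 10 RPM filter only through CG9754-IP, the group where they are high, so that filter favours a high value there.

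No TE past the filter ran close to FB4 on the sense strand. The nearest were hoppel (a DNA transposon that the table lists under a number), copia and the F-element. Their distances were 0.962, 0.973 and 1.01, against a median of 1.46. Among antisense profiles the nearest to FB4 were 1731 at 0.941, the R1A1-element at 1.22 and Transpac at 1.26 (median over 74 TEs 1.81). Antisense R1A1-element small RNAs had closer company, with hoppel at 0.294, baggins at 0.337 and gypsy at 0.344 (median 0.869).

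Other TEs of the same classes were read from lists. Of 26 names of foldback elements and other DNA transposons, 24 were in the table and 7 passed the filter on each strand. On the sense strand 0 of the 7 rose in CG9754-IP, also at an unadjusted limma p under 0.05, and 2 fell, beside 24 (45.3%) and 10 (18.9%) of all 53 TEs. The median of the 7 was 0.08, against 0.22 over all TEs tested. These were hopper, at 74.7 ± 22.4 RPM in CG9754-IP and 111 ± 9.41 RPM in input (limma adjusted p = 0.00215), and INE-1, at 111 ± 9.61 RPM in CG9754-IP and 141 ± 6.31 RPM in input (limma adjusted p = 0.0419; SD, n = 2 each). Antisense small RNAs rose for 2 of the 7 and fell for 0 (3 and 1 at an unadjusted limma p under 0.05), beside 9 and 25 of all 75 TEs, or 19 and 15 of 75 with the same TE total. The 2 were DNAREP1, by 1.65 on the log2 scale (limma adjusted p = 0.000990), and hoppel, by 0.32 (limma adjusted p = 0.0425). DNAREP1 averaged 21.3 RPM in CG9754-IP and 6.09 RPM in input, so it passed the 10 RPM filter only through the group where it is high, and its rise is favoured by that filter. The median of the 7 was -0.15, against -0.16 over all.

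Of 34 names of LINEs (non-LTR retrotransposons, with the telomeric ones such as TAHRE left out), 31 were in the table, and 9 were tested on the sense strand and 18 on the antisense strand. With the R1A1-element, 3 other sense LINEs rose in CG9754-IP: the F-element by 0.88, Doc by 0.64 and Cr1a by 0.46 on the log2 scale, while BS fell by 0.55. These 4 of 9 that rose stand beside 24 of 53 (45.3%) over all sense TEs, nearly the same share. The median of the 9 was 0.42, against 0.22 over all sense TEs. Antisense small RNAs of G2 and Rt1b rose, by 0.97 and 0.46, and 9 of the 18 fell, among them Juan, which fell by 0.68. Over all antisense TEs 9 of 75 rose and 25 of 75 fell, or 19 and 15 of 75 with the same TE total. The counts of LINEs that rose or fell were made in RPM as deposited alone. The antisense median of the LINEs was -0.22, below the value of 0.28 for the R1A1-element. In RPM as deposited, the Piwi-IP minus input difference was below 0 for 1 of the 9 sense LINEs and 1 of the 18 antisense LINEs, in both cases the R1A1-element. Of the 7 DNA elements, 2 on each strand were below 0, FB4 among them. Over all TEs past the filter the Piwi-IP mean was below the input mean for 11 of 53 on the sense strand (20.8%) and 7 of 75 on the antisense strand (9.33%). All these sign counts depend on the scaling: with the same TE total, 37 of 53 sense TEs and 35 of 75 antisense TEs were below 0, as were 6 of the 9 sense and 3 of the 18 antisense LINEs and 5 of the 7 DNA elements on each strand.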

How the data were processed

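The deposited table gives sense and antisense values of 124 TEs in 6 small RNA libraries; its header names no unit, and the deposited values were read as RPM because all of them are whole multiples of 1 step per library. Per the submitters' processing notes, the tools were Bowtie 0.12.7, cutadapt 1.0, bedtools 2.16.1 and SAMtools 0.1.16, with build dm3; their roles, the read lengths kept and the assignment of reads with several matches are not given in the sources used here. Library totals and read numbers were computed from the step, with exact Poisson 95% intervals. All TEs that averaged 10 RPM or more across the libraries were fitted together by group on log2(RPM + 1) with limma 3.58.1 in R 4.3.3 (trend), tests two-sided, Benjamini-Hochberg over all TEs of a strand, threshold 0.05. An exact permutation test of 2 against 2 libraries cannot give a p below 0.333, so none was used. The strand ratio was fitted in the same way over the TEs that passed on both strands summed.

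Named TEs were the members, the 3 nearest to each by distance, the 3 other TEs per strand with the lowest Piwi-IP minus input difference, and members of the lists past the test; FB, NOF, the R2-element, R1-2 and TAHRE were named after their values were seen. The members and lists were chosen with earlier results of these data known. Alternatives covered pseudocounts of 0.1 and 10 RPM, the filter, 2 rescalings, a replicate block, 2 groups alone, no trend, and each library left out. The scripts were tested on simulated data (Python 3.11.15, pandas 2.3.3, scipy 1.17.1). The other samples of the series, 40 of 46, were not used here.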

Additional observations from a re-analysis of the deposited data

How the results depend on the processing

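Counting depth limits sense R1A1-element reads in Piwi-IP (53 and 26) and, among the related rows, R1-2, the R2-element and NOF, and with 2 libraries a group the spread is estimated largely across TEs and groups. Whether same-numbered libraries were prepared together is not given in the sources used here. The deviations of same-numbered libraries correlated at -0.13 to 0.26 across TEs, which cannot settle it. With the replicate block the counts past the threshold (higher and lower together) were 34 on the sense strand, 30 on the antisense strand and 63 for the strand ratio, against 34, 34 and 64 without it, and the R1A1-element's strand ratio difference of 0.72 passed (limma adjusted p = 0.0222). The planned edgeR test on reads recomputed from RPM was not run, because the table has too few low values per library for the check of such reads.

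For CG9754-IP minus input, leaving out 1 library gave 30 to 41 sense TEs, 14 to 57 antisense TEs and 42 to 68 TEs for the strand ratio past the threshold. Antisense FB4 passed at 0.27 with a pseudocount of 10 RPM (limma adjusted p = 0.0463), 0.52 with the same TE total (0.0129), 0.40 with the median ratio (0.0123) and 0.34 without trend (0.0395), and ranged from 0.22 to 0.46 with 1 library left out. Antisense R1A1-element passed at 0.46 with the same TE total (0.0338) and ranged from 0.19 to 0.37. Its strand ratio difference passed at 0.47 with a pseudocount of 10 RPM (0.0320) and at 0.72 with both groups fitted alone (0.0365), and ranged from 0.48 to 0.96. The sense values ranged from 0.01 to 0.19 for FB4 and from 0.85 to 1.16 for the R1A1-element, and the strand ratio of FB4 from -0.28 to -0.19, with no call changed.

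For Piwi-IP minus input, with no test, the values with a pseudocount of 10 RPM, the same TE total and the median ratio were -0.67, -1.07 and -1.06 for sense FB4 and -0.73, -1.19 and -1.18 for antisense FB4, which was -1.08 with a pseudocount of 0.1 RPM. Sense R1A1-element was -0.81 with a pseudocount of 10 RPM, and antisense R1A1-element was -0.21 with the same TE total and -0.20 with the median ratio. With 1 library left out they ranged from -0.98 to -0.84 and -1.06 to -1.02 for sense and antisense FB4, and from -2.12 to -1.57 and -0.14 to 0.04 for sense and antisense R1A1-element. For CG9754-IP minus Piwi-IP the same 3 settings gave 0.76, 1.35 and 1.22 for sense FB4 and 1.00, 1.71 and 1.58 for antisense FB4; sense R1A1-element was 1.49 with a pseudocount of 10 RPM, and antisense R1A1-element 0.67 and 0.54 under both rescalings. With 1 library left out these ranged from 0.92 to 1.10 and 1.26 to 1.497 for sense and antisense FB4, and from 2.57 to 3.13 and 0.24 to 0.42 for sense and antisense R1A1-element. A larger pseudocount shrinks differences of low values by construction; for the rescalings and the left-out libraries the cause was not tested.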
